A study of Sus scrofa with 12 samples.

Results

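The genes described here are 10 members of the NODAL and activin pathway: the ligand NODAL, its coreceptor TDGF1, the receptors ACVR1B, ACVR2A and ACVR2B, the transducers SMAD2 and SMAD3, their DNA-binding partner FOXH1, and the antagonists LEFTY2 and SMAD7. They were chosen by symbol, with 1 locus taken for each symbol, and all 10 were found among the 30012 loci of the deposited table. The 12 libraries came from pig cells, 3 each from the parthenogenetic embryonic stem cell (ESC) line ESC-7, the parthenogenetic line ESC-3, the IVF-derived line ESC-11, and fetal fibroblasts used as the somatic control. Parthenogenetic lines come from activated eggs and carry no paternal genome, and with 1 IVF line the origin and the line cannot be told apart. All 3 ESC lines grew on feeder cells in a serum replacement medium with 5 ng/mL ActA (activin A), a ligand of this pathway, 20 ng/mL FGF2, 1.5 µM CH and 2.5 µM IWR-1. Y-27632 (10 µM) was added for 24 h before and 24 h after each passage, and SSEA1-positive cells were taken on magnetic columns before RNA extraction. The fibroblasts came from a fetus at day 30 post coitum and were at passage 6, and their medium is not given in the sources used here. A difference between ESCs and fibroblasts therefore also spans medium, feeder cells and sorting, and the labels do not state whether the 3 libraries of a line were grown apart.

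NODAL and the activins are secreted ligands of the transforming growth factor beta family. They bind type II receptors (ACVR2A and ACVR2B), which activate the type I receptor ACVR1B. The activated receptor phosphorylates SMAD2 and SMAD3, which enter the nucleus with SMAD4 and act on genes with partners such as FOXH1. NODAL, unlike activin, needs a coreceptor such as TDGF1 (Cripto), and in mouse embryos NODAL and the LEFTY genes are themselves targets of the pathway. In human and mouse pluripotent cells of the primed kind, this pathway maintains NANOG and the undifferentiated state.

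Values are FPKM, fragments scaled to transcript length and to the mapped fragments of a library, so levels can be set side by side between genes, and the number of fragments behind each value is unknown. Differences were tested with limma on log2(FPKM + 1), a scale that understates changes of low genes, and "called" means an adjusted p under 0.05 (Benjamini-Hochberg) together with a log2 difference of 1 or more in either direction. Pluripotency markers (POU5F1, SOX2, NANOG, LIN28A) summed to 1638 to 1831 FPKM in ESC libraries and to 0.0163 to 0.141 FPKM in fibroblasts. The 8 fibroblast markers summed to 71.0 to 111 FPKM in ESC libraries, against 16010 to 16187 FPKM in fibroblasts, and none of them was at 0 in every ESC library. Across loci, libraries of a group correlated at 0.987 to 0.991, libraries of different ESC lines at 0.970 to 0.978, and ESC with fibroblast libraries at 0.834 to 0.844.

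ESCs were first set against fibroblasts, to ask which pathway genes distinguish the stem cells from a differentiated cell. TDGF1, ACVR1B, ACVR2B, FOXH1 and LEFTY2 were higher in ESCs and SMAD3 was lower, so 6 of 10 members were called, where 43.1% of the 18278 tested loci were called (28.1% higher and 14.9% lower). NODAL, ACVR2A, SMAD2 and SMAD7 had an adjusted p under 0.05 but a log2 difference under 1. In 6 members every ESC library was above every fibroblast library and in 4 every one was below, while 50.2% of all tested loci were in the first class and 24.9% in the second. The median log2 difference of the members was 1.01, beside 0.44 over all tested loci. NODAL, TDGF1, ACVR2B, FOXH1 and LEFTY2 passed the filter on low values (3 or more libraries with 1 FPKM or more) only through ESC libraries, so their counts and the median are a description and support nothing. Less RNA of a gene per cell and fewer cells that express it cannot be told apart in these bulk libraries.

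**Figure D1:**
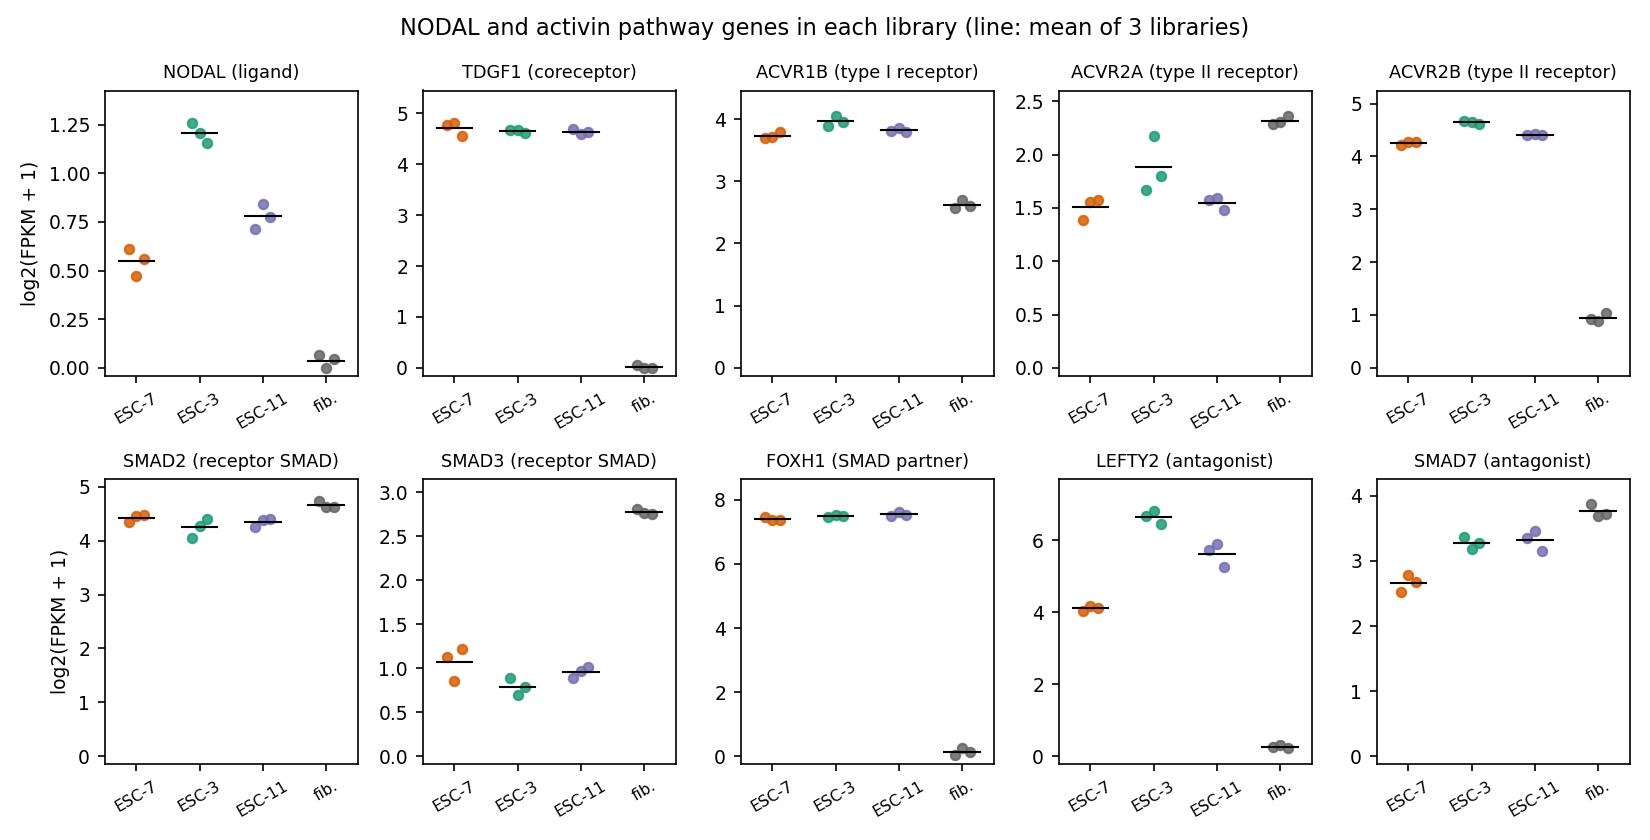
Level of each of the 10 pathway genes as log2(FPKM + 1), with 1 point per library, ESC-7, ESC-3, ESC-11 and fibroblasts (fib.) from left to right, and a line at the mean of 3 libraries. The y axes differ between panels, and in no panel do ESC and fibroblast points overlap.

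NODAL, the ligand, was low in all libraries. Its FPKM was 0.527, 0.389 and 0.474 in ESC-7, 1.39, 1.31 and 1.23 in ESC-3, 0.641, 0.793 and 0.714 in ESC-11, and 0.0452, 0 and 0.0316 in fibroblasts. The 3 ESC lines did not overlap each other, and only ESC-3 lay above 1 FPKM. The log2 difference of NODAL between ESCs and fibroblasts was 0.81 ± 0.05 (SE; limma adjusted p = 3.04e-08). It was not called on this scale, and with a pseudocount of 0.1 in place of 1 it was 2.80 and was called. ESC-3 alone was called against fibroblasts, at 1.17 ± 0.06 (limma adjusted p = 9.13e-09), and the differences of ESC-7 (0.51) and ESC-11 (0.74) stayed under the fold minimum. The ESC-3 call was lost after quantile normalization (0.76) and with a pseudocount of 5 (0.33). NODAL passed the filter only through the ESC-3 libraries, and with one of them left out it did not pass, so this call is a description. After quantile normalization the ESC-7 difference was -0.014. NODAL was read on an unannotated locus without a strand, XLOC_008073 (Sscrofa10.2 chromosome 14, 79267759 to 79271132), which starts 543 bp from the locus of EIF4EBP2, a translation repressor that also neighbours NODAL in RefSeq's Sscrofa11.1 annotation. EIF4EBP2 averaged 102 FPKM in ESC-7, 115 in ESC-3, 103 in ESC-11 and 44.7 in fibroblasts, and its part in the NODAL values was not tested.

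TDGF1, the coreceptor that presents NODAL to its receptors, was at a far higher level and almost the same in the 3 lines. Its FPKM was 26.2, 26.9 and 22.5 in ESC-7, 24.4, 24.5 and 23.4 in ESC-3, 24.9, 23.1 and 23.8 in ESC-11, and 0.0425, 0 and 0 in fibroblasts. The ranges of the 3 ESC lines overlapped, and the fibroblasts lay far below. The log2 difference between ESCs and fibroblasts was 4.65 ± 0.05 (SE; limma adjusted p = 7.58e-14). Between lines it was 0.06 ± 0.06 for ESC-7 minus ESC-3 and 0.01 ± 0.06 for ESC-3 minus ESC-11, neither past the threshold. TDGF1 lies on chromosome 13, 32774050 to 32777992, on the plus strand.

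The type II receptor genes changed places. ACVR2B (chromosome 13, 25421870 to 25460928) had 17.5, 18.5 and 18.4 FPKM in ESC-7, 24.5, 24.1 and 23.6 in ESC-3, 20.2, 20.5 and 20.2 in ESC-11, and 0.898, 0.856 and 1.05 in fibroblasts. ACVR2A (chromosome 15, 3823638 to 3911457) had 1.62, 1.94 and 1.97 FPKM in ESC-7, 2.19, 3.51 and 2.47 in ESC-3, 1.97, 2.03 and 1.80 in ESC-11, and 3.88, 3.96 and 4.14 in fibroblasts. ACVR2B was thus the higher of the pair in all 9 ESC libraries and ACVR2A in all 3 fibroblast libraries. ACVR2B was 22.3-fold higher in ESCs by mean FPKM, with a log2 difference of 3.49 ± 0.04 (limma adjusted p = 4.50e-14). ACVR2A differed by -0.67 ± 0.09 (limma adjusted p = 4.42e-05), under the fold minimum, and reached -1.03 and was called after quantile normalization or median-ratio scaling. A locus on an unplaced scaffold with the same symbol as ACVR2A was at 0 in all 12 libraries.

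ACVR1B, the type I receptor that both ligands use, was moderately higher in ESCs. Its FPKM was 11.9, 12.1 and 12.8 in ESC-7, 13.8, 15.6 and 14.5 in ESC-3, 13.0, 13.6 and 12.9 in ESC-11, and 4.97, 5.47 and 5.09 in fibroblasts. All ESC libraries were above all fibroblast libraries, by 2.58-fold in mean FPKM and by 1.21 ± 0.04 on the log2 scale (limma adjusted p = 4.76e-10). The call depended on scaling: the log2 difference was 0.93 after quantile normalization, 0.82 after median-ratio scaling and 0.85 with a pseudocount of 5. ACVR1B lies on chromosome 5, 17901709 to 17938189.

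The receptor-activated SMADs were both lower in ESCs, SMAD2 slightly and SMAD3 strongly. SMAD2 (chromosome 1, 106879306 to 106992140) had 19.4, 20.8 and 21.1 FPKM in ESC-7, 15.6, 18.3 and 20.2 in ESC-3, 18.0, 19.8 and 20.1 in ESC-11, and 25.5, 23.7 and 23.8 in fibroblasts. The 3 lines overlapped, and the log2 difference between ESCs and fibroblasts, -0.33 ± 0.07 (limma adjusted p = 8.75e-04), was not called. SMAD3 was read on an unannotated locus of 1825 bp (XLOC_000540, chromosome 1, 182685265 to 182687089). It had 1.20, 0.804 and 1.33 FPKM in ESC-7, 0.859, 0.619 and 0.727 in ESC-3, 0.852, 0.956 and 1.02 in ESC-11, and 6.02, 5.78 and 5.73 in fibroblasts. Its log2 difference was -1.83 ± 0.08 (limma adjusted p = 1.79e-09), and with a pseudocount of 5 it was -0.87 and not called.

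A further locus bears on SMAD3. ENSSSCG00000004952.L01 (chromosome 1, 182895506 to 182949801, minus strand) lies 208416 bp from the short SMAD3 locus, which is on the plus strand. SMAD3 spans 125999 bp in RefSeq's Sscrofa11.1 annotation, less than this gap. Whether the short locus is part of the SMAD3 gene was not tested. The deposited table gives ENSSSCG00000004952.L01 the symbol SMAD2, while the Ensembl name table gives SMAD3 for its identifier. It averaged 1.97 ± 0.266 FPKM in ESC-7, 1.41 ± 0.135 in ESC-3, 1.51 ± 0.170 in ESC-11 and 14.2 ± 0.227 in fibroblasts (SD, n = 3 each). Its log2 difference of -2.54 ± 0.06 (limma adjusted p = 2.50e-11) had the direction of the short locus. With this locus added to SMAD2, as its symbol in the table implies, the SMAD2 difference was -0.86 and stayed uncalled. The fibroblast marker sums above moved in the same direction as SMAD3, and their part in it was not tested.

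FOXH1, the forkhead factor that brings the SMADs to DNA, was the highest of the 10 members in every ESC library. Its FPKM was 177, 165 and 163 in ESC-7, 176, 181 and 178 in ESC-3, 179, 196 and 181 in ESC-11, and 0.0190, 0.185 and 0.110 in fibroblasts. ESC-3 overlapped both other lines, all ESC-7 libraries lay below all ESC-11 libraries, and no fibroblast library reached 1 FPKM. FOXH1 had the largest difference of the members, 7.33 ± 0.05 on the log2 scale (limma adjusted p = 2.30e-15), and between lines it did not pass the threshold, with -0.14 ± 0.06 for ESC-7 minus ESC-11 (limma adjusted p = 0.101), -0.09 ± 0.06 for ESC-7 minus ESC-3 and -0.06 ± 0.06 for ESC-3 minus ESC-11. FOXH1 lies on chromosome 4, 411475 to 415702.

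The antagonists differed from each other. LEFTY2, a secreted protein that blocks NODAL and its coreceptor, had 15.5, 17.2 and 16.3 FPKM in ESC-7, 101, 111 and 87.1 in ESC-3, 52.4, 59.0 and 37.1 in ESC-11, and 0.192, 0.242 and 0.172 in fibroblasts. No line overlapped another, and the log2 difference between ESCs and fibroblasts was 5.20 ± 0.12 (limma adjusted p = 1.48e-11). SMAD7, an intracellular inhibitor that competes with SMAD2 and SMAD3 at the receptor and is itself induced by the pathway, had 4.73, 5.91 and 5.43 FPKM in ESC-7, 9.28, 8.04 and 8.71 in ESC-3, 9.24, 10.0 and 7.94 in ESC-11, and 13.7, 11.9 and 12.2 in fibroblasts. All ESC libraries were below all fibroblast libraries, and the log2 difference of SMAD7 was -0.68 ± 0.08 (limma adjusted p = 1.08e-05), not called, and -1.10 and called after median-ratio scaling. SMAD7 lies on chromosome 1, 108087684 to 108118324.

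Each line was also set against fibroblasts, and these comparisons share the 3 fibroblast libraries. In ESC-7, 5 members were called higher and 2 lower, where 43.4% of all tested loci were called (29.2% higher and 14.3% lower). In ESC-3, 6 were higher and 1 was lower, beside 44.1% of loci (28.6% higher and 15.5% lower). In ESC-11, 5 were higher and 1 was lower, beside 42.9% of loci (27.4% higher and 15.5% lower). The members called apart from the 6 above were SMAD7 in ESC-7 (-1.10 ± 0.10, and -0.77 with a pseudocount of 5) and NODAL in ESC-3. LEFTY2 varied most between lines, with log2 differences of 3.85 in ESC-7, 6.38 in ESC-3 and 5.37 in ESC-11, while TDGF1 stood at 4.69 in ESC-7, 4.63 in ESC-3 and 4.62 in ESC-11.

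**Figure D2:**
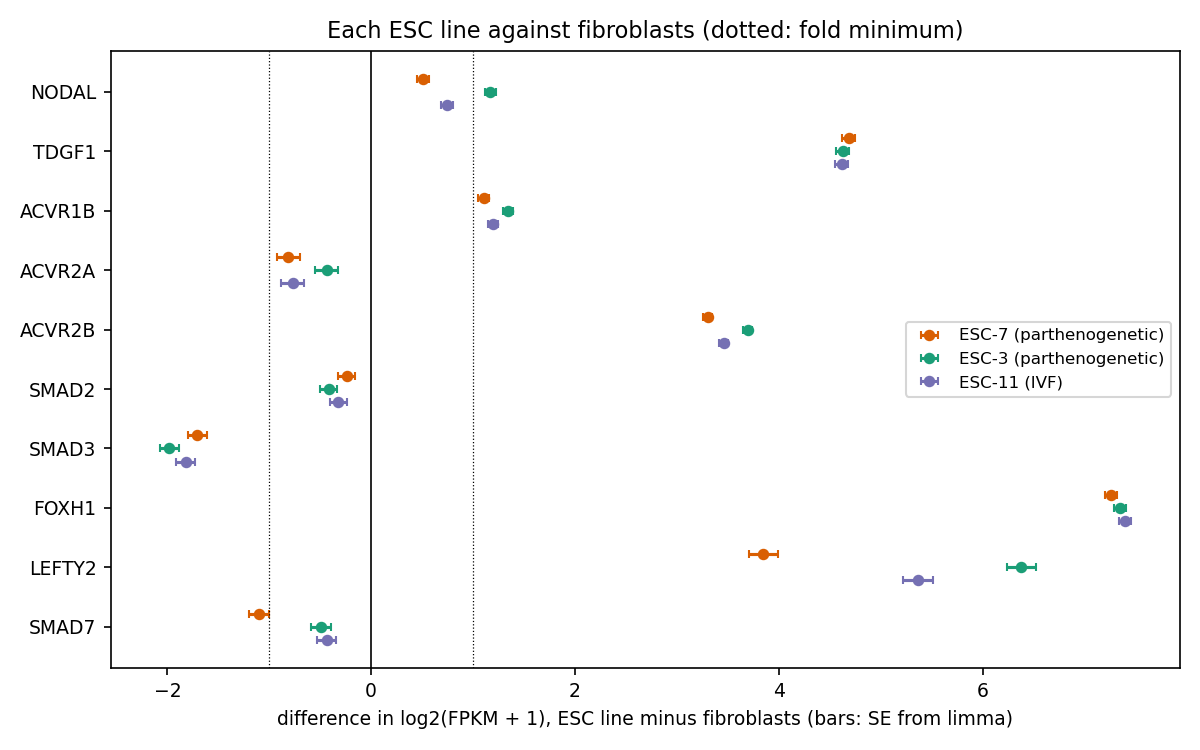
Difference in log2(FPKM + 1) of each ESC line minus fibroblasts for the 10 pathway genes, with bars for the limma standard error and dotted lines at the fold minimum of 1. The 3 lines lie together for TDGF1 (4.62 to 4.69) and apart for LEFTY2 (3.85 to 6.38).

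Between ESC lines, LEFTY2 was the member that differed most. It was lower in ESC-7 than in ESC-3 by a log2 difference of -2.53 ± 0.15 (limma adjusted p = 7.90e-07) and lower in ESC-7 than in ESC-11 by -1.52 ± 0.15 (limma adjusted p = 4.16e-05). ESC-3 was above ESC-11 by 1.01 ± 0.15 (limma adjusted p = 8.67e-04). This last difference sat at the fold minimum, and it was 1.00 without ESC-3 replicate 1, 0.94 without ESC-3 replicate 2 and 0.82 without ESC-11 replicate 3, and not called. LEFTY2 was the 1 member called in each pair, where 3.38% of all tested loci were called between ESC-7 and ESC-3, 2.94% between ESC-7 and ESC-11, and 2.48% between ESC-3 and ESC-11. The parthenogenetic lines were the highest and the lowest of the 3, with IVF ESC-11 between them. The mean of both against ESC-11 gave -0.25 ± 0.13 for LEFTY2 (limma adjusted p = 0.198).

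Smaller differences between the lines ran through other members. With the adjusted p alone and no fold minimum, 6 of 10 members were lower and 1 was higher in ESC-7 than in ESC-3, where 17.1% of tested loci were lower and 22.9% higher. NODAL was lower in ESC-7 than in ESC-3 by -0.66 ± 0.06 (limma adjusted p = 1.37e-05) and than in ESC-11 by -0.23 ± 0.06 (limma adjusted p = 0.0129, and up to 0.0522 with a library left out). It was higher in ESC-3 than in ESC-11 by 0.43 ± 0.06 (limma adjusted p = 5.43e-04). NODAL passed the filter on low values only through the 3 ESC-3 libraries, the line where it was highest. Its differences from ESC-3, and its place among the 6 lower members, are therefore a description and support nothing. With a pseudocount of 0.1 the NODAL difference of ESC-7 minus ESC-3 was -1.33 and was called. SMAD7 was lower in ESC-7 than in ESC-3 by -0.61 ± 0.10 and than in ESC-11 by -0.66 ± 0.10 (limma adjusted p = 6.55e-04 and 6.28e-04), and its ESC-7 libraries did not overlap those of the other lines. ACVR2B fell in the same order as NODAL and LEFTY2, lowest in ESC-7 and highest in ESC-3, with -0.39 ± 0.04 for ESC-7 minus ESC-3 (limma adjusted p = 7.64e-05). ACVR1B (-0.24) and ACVR2A (-0.38) were lower and SMAD3 (0.28) was higher in ESC-7 than in ESC-3, with limma adjusted p-values that reached 0.0799 for ACVR2A and 0.131 for SMAD3 when a library was left out, and TDGF1, FOXH1 and SMAD2 did not pass the threshold in any pair of lines. NODAL, ACVR1B, ACVR2A, ACVR2B and LEFTY2 had their means in the order ESC-7, ESC-11, ESC-3 from low to high. How common this order was over all tested loci was not computed, so it is a description alone.

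Between the parthenogenetic lines together and IVF ESC-11, limma called 0 of 10 members, where 2.20% of tested loci were called. At an unadjusted limma p under 0.05 there was 1 member, SMAD7, beside 5990 of the 18278 tested loci. Its difference was -0.36 ± 0.08 (limma adjusted p = 0.0131, and up to 0.0606 with a library left out). This value averages ESC-7, which was below ESC-11, and ESC-3, which overlapped it.

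Markers of other cells were read beside the differences between lines. The 5 endoderm markers summed to 2.92 to 3.31 FPKM in ESC-7, 0.768 to 1.62 in ESC-3 and 1.45 to 1.51 in ESC-11, against 0.911 to 1.20 in fibroblasts, and none was at 0 in every ESC library. GATA6, an endoderm factor, had 2.53, 2.66 and 2.53 FPKM in ESC-7, against 0.423 to 1.23 in ESC-3. It averaged 1.05 in ESC-11 and 0.926 in fibroblasts. SOX7 was also higher in ESC-7 than in ESC-3 by mean FPKM (0.396 against 0.0636). The other endoderm markers were lower in ESC-7 than in ESC-3: SOX17 (0.0142 against 0.0278), GATA4 (0.0499 against 0.0807) and FOXA2 (0.0458 against 0.164). The 4 mesendoderm markers read here summed to 0.494 to 1.09 FPKM over the ESC libraries, against 0.369 to 0.614 in fibroblasts. The neural markers summed to 8.84 to 10.3 FPKM in ESCs and 100 to 102 in fibroblasts. Among the trophectoderm markers KRT7 was read on a locus of 117 bp at values that varied widely within groups, and no other one was above 0.282 FPKM in an ESC library. The fibroblast markers summed to 76.3 to 87.8 FPKM in ESC-7, 85.6 to 111 in ESC-3 and 71.0 to 76.3 in ESC-11. The part of these markers in the differences between lines was not tested.

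The LEFTY2 locus needs care. XLOC_002481 spans 39301 bp (chromosome 10, 15935636 to 15974936, plus strand), whereas LEFTY2 spans 4387 bp in RefSeq's Sscrofa11.1 annotation. The locus overlaps other loci of the table, which are not reported here, and how the authors' counting shared fragments between them is not given in the sources used here. The part of the overlapping loci in the LEFTY2 values was not tested.

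Over the 9 ESC libraries, the genes closest to LEFTY2 among 9440 candidates, by the correlation of log2(FPKM + 1), were CSNK1G2 (0.994), TUBB3 (0.986), MTHFD1L (0.985), FASTKD1 (0.984) and FSCN1 (0.984). Those closest to NODAL were NUP43 (0.992), KLHDC4 (0.987), CPSF3L (0.987), PWP2 (0.983) and GSTA4 (0.983). These values are a description, since the 9 libraries fall into 3 lines and a gene that orders the lines alike scores high. TUBB3, a neuronal tubulin, had the widest spread of the 10 named, with 44.7 FPKM in ESC-7, 245 in ESC-3 and 139 in ESC-11.

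Other genes of the pathway were listed by role. Of 46 listed genes 39 were found and 28 were tested, and between ESCs and fibroblasts 6 were higher, 11 were lower and 11 were not called, where 28.1% of all tested loci were higher and 14.9% lower. Their median log2 difference was -0.29, beside 0.44 over all tested loci. INHBA, INHBB, INHBE, TGFB2 and TGFB3 passed the filter only through fibroblasts, and GDF1, GDF3 and NANOG only through ESCs, so these counts and the median are a description of the genes that passed and support nothing about the list.

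**Figure D3:**
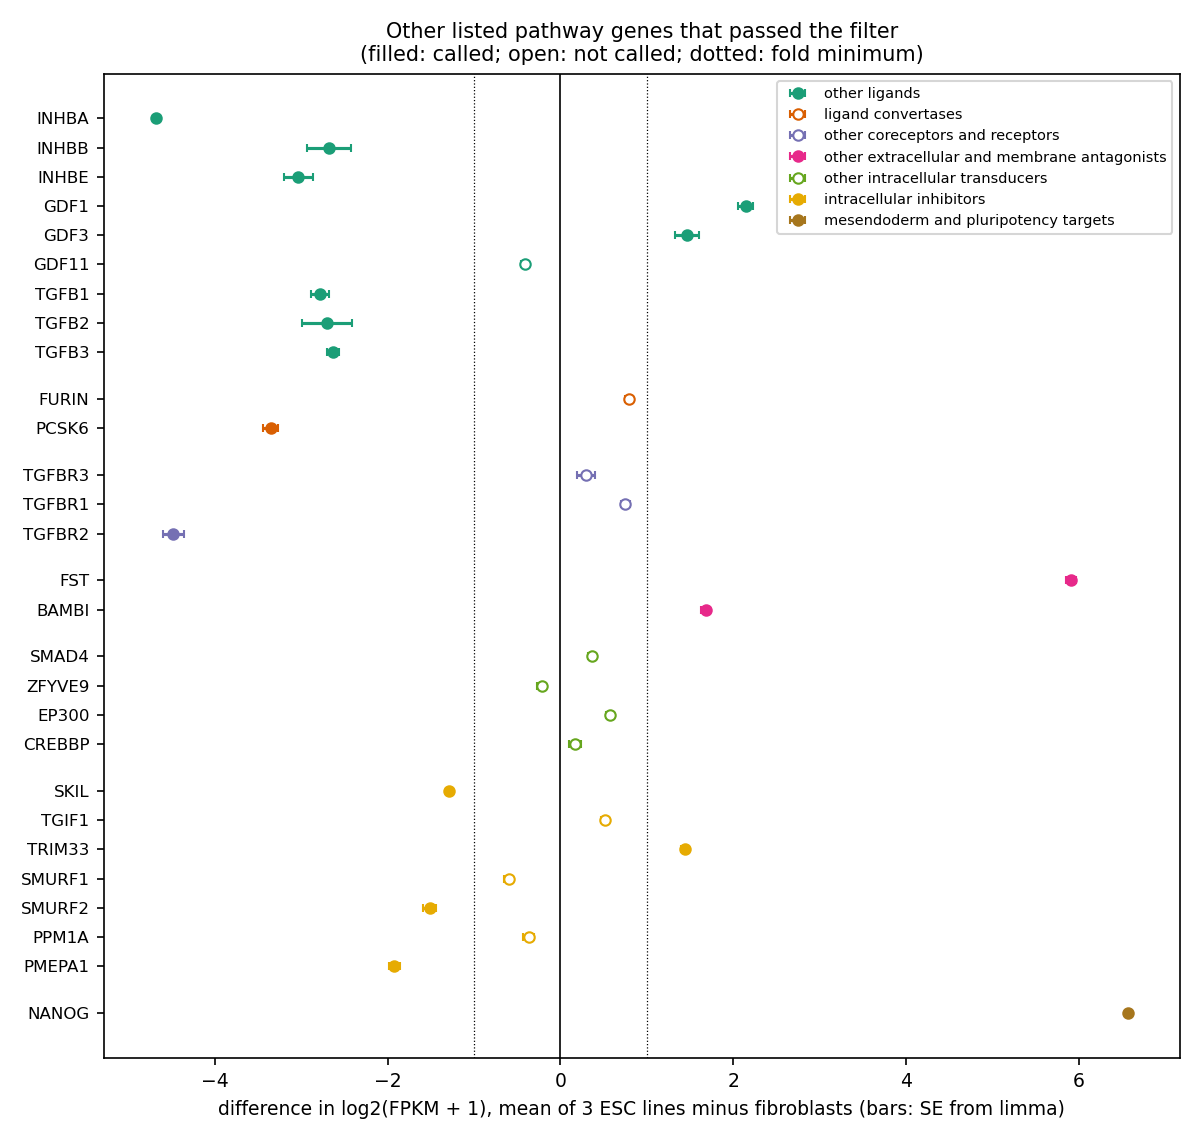
Difference in log2(FPKM + 1) between the mean of the 3 ESC lines and fibroblasts for the 28 other pathway genes that passed the filter, grouped by role, with bars for the limma standard error. Filled points were called, and they run from INHBA (-4.68) to NANOG (6.57).

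Of 9 tested ligands, 6 were lower and 2 were higher in ESCs, beside the 14.9% lower and 28.1% higher of all loci. Of these 8 called genes, 5 of the lower ones and both higher ones passed the filter only through the group where they were high, and TGFB1 was the exception. INHBA, which encodes the activin A subunit, averaged 0.138 ± 0.0404 FPKM in ESC-7, 0.121 ± 0.00954 in ESC-3, 0.0489 ± 0.00545 in ESC-11 and 27.2 ± 0.890 in fibroblasts (SD, n = 3 each), a log2 difference of -4.68 ± 0.04 (limma adjusted p = 1.01e-14). The activin added to the ESC medium was thus one whose own transcript was near 0 in the ESC lines. INHBE, TGFB2 and TGFB3 were also lower in ESCs, by -3.03, -2.70 and -2.63, and 1 ESC-11 library stood at 3.35 FPKM of TGFB2 beside 0.461 and 0.283 in the other ESC-11 libraries. TGFB1 (-2.78) and INHBB (-2.68) were lower too, but on loci of only 354 bp and 341 bp. GDF1, which pairs with NODAL in mouse, rose to 4.40 ± 0.501 FPKM in ESC-7, 5.97 ± 0.984 in ESC-3 and 5.19 ± 0.260 in ESC-11, against 0.387 ± 0.0894 in fibroblasts. The Ensembl name table gives CERS1, a ceramide synthase gene, for the identifier of this locus, so the GDF1 values rest on the symbol in the deposited table. GDF3, a NODAL-related ligand, averaged 1.89 FPKM in ESC-7, 1.93 in ESC-3 and 1.56 in ESC-11 and was listed at 0 in all fibroblast libraries. Its log2 difference of 1.46 was 0.44 with a pseudocount of 5, and not called, and that of GDF1 was 2.15 and likewise 0.91. Of the proteases that can cut the NODAL precursor, PCSK6 was lower in ESCs (-3.35), read on 1 of 5 loci with that symbol. FURIN was not called, with 95.8 FPKM in ESC-7, 97.5 in ESC-3, 94.1 in ESC-11 and 54.7 in fibroblasts.

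Among the other receptors, TGFBR2, the type II receptor of the TGF-beta ligands, had 53.5, 55.8 and 46.2 FPKM in ESC-7, 15.4, 18.5 and 24.1 in ESC-3, 23.0, 25.8 and 24.6 in ESC-11, and 656, 589 and 772 in fibroblasts. These values come from a locus of 3948 bp, 1 of 3 loci with that symbol. TGFBR2 was lower in ESCs by -4.48 ± 0.12 (limma adjusted p = 5.52e-11). It was also the 1 gene called between lines among the 28 listed genes tested outside the members. Of all tested loci, 3.38% were called between ESC-7 and ESC-3 and 2.94% between ESC-7 and ESC-11. TGFBR2 was higher in ESC-7 than in ESC-3 by 1.39 ± 0.15 (limma adjusted p = 5.34e-05) and than in ESC-11 by 1.05 ± 0.15 (limma adjusted p = 5.60e-04). ESC-7 thus had the highest TGFBR2 and the lowest LEFTY2 of the 3 lines. The ESC-7 minus ESC-11 difference was not called without ESC-7 replicate 2 (1.00), with a pseudocount of 5 (0.95) or after median-ratio scaling (1.00), each just under the fold minimum. TGFBR1 (0.75) and TGFBR3 (0.30, and -0.025 after quantile normalization) were not called, and ACVR1C, the other type I receptor for NODAL, was below the filter, with a mean of 0.369 FPKM in fibroblasts and less in each ESC line.

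Both tested extracellular and membrane antagonists were higher in ESCs, beside 28.1% of all tested loci. FST (follistatin), which binds activin and keeps it from its receptors, averaged 146 ± 6.47 FPKM in ESC-7, 156 ± 2.83 in ESC-3, 168 ± 6.80 in ESC-11 and 1.63 ± 0.276 in fibroblasts, a log2 difference of 5.91 ± 0.06 (limma adjusted p = 2.59e-14). BAMBI, a pseudoreceptor without a kinase domain, had 10.3, 10.9 and 11.8 FPKM in ESC-7, 9.01, 9.18 and 8.89 in ESC-3, 8.13, 7.89 and 7.70 in ESC-11, and 2.51, 2.01 and 2.06 in fibroblasts, a log2 difference of 1.68 ± 0.05 (limma adjusted p = 2.18e-10). CER1, a secreted NODAL antagonist, was below the filter, at 0.0898, 0.172 and 0.0864 FPKM in ESC-7, 0.632, 1.30 and 0.838 in ESC-3, 0.466, 0.413 and 0.283 in ESC-11, and listed at 0 in fibroblasts. It was not tested, and its lines stood in the order of LEFTY2.

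Inside the cell, limma called 0 of 4 other transducers (SMAD4, ZFYVE9, EP300 and CREBBP), where 43.1% of all tested loci were called. All 4 had an unadjusted limma p under 0.05, as did 16098 of the 18278 tested loci. SMAD4, the partner shared by all receptor SMADs, averaged 51.5 FPKM in ESC-7, 53.2 in ESC-3, 54.5 in ESC-11 and 41.0 in fibroblasts, and its log2 difference of 0.36 turned to -0.083 after median-ratio scaling. Of 7 tested intracellular inhibitors 3 were lower and 1 was higher in ESCs, beside the 14.9% lower and 28.1% higher of all loci. SKIL (-1.29), a SMAD corepressor, SMURF2 (-1.51), a ubiquitin ligase for SMADs and receptors, and PMEPA1 (-1.92), which holds back SMAD2 and SMAD3, were lower. SMURF2 was read on a locus of 5828 bp on an unplaced scaffold, 1 of 4 loci with that symbol. TRIM33, a ubiquitin ligase that acts on SMAD4, was higher (1.44), read on an unplaced scaffold at 1 of 2 loci with that symbol.

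Of the mesendoderm and pluripotency targets, 1 of the 6 found was tested, and it was higher in ESCs, beside 28.1% of all tested loci. NANOG, the homeobox factor of pluripotent cells, averaged 80.4 ± 2.98 FPKM in ESC-7, 107 ± 2.85 in ESC-3, 102 ± 0.946 in ESC-11 and 0.0162 ± 0.0281 in fibroblasts, a log2 difference of 6.57 ± 0.03 (limma adjusted p = 3.08e-16). GSC, EOMES, MIXL1, FGF8 and LHX1, which mark the primitive streak and its products, were below the filter, and none of them reached 1 FPKM in any library.

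By the adjusted p alone, the listed genes went both ways between lines. Of the 28 tested, 5 were lower and 5 were higher in ESC-7 than in ESC-3, beside 17.1% of all loci lower and 22.9% higher, and 4 were lower and 5 higher in ESC-7 than in ESC-11, beside 11.3% and 19.6%. SKIL, PMEPA1, TGIF1 and NANOG were lower in ESC-7 than in both other lines, and TGFBR2 and BAMBI were higher than in both. Against ESC-3 the log2 difference was -0.37 for SKIL, -0.54 for PMEPA1, -0.44 for TGIF1 and -0.41 for NANOG, and against ESC-11 it was -0.31, -0.46, -0.45 and -0.34 for the same genes in that order, each with a limma adjusted p under 0.05. Pathway activity in the 3 lines was not tested. BAMBI was higher in ESC-7 than in ESC-3 by 0.26 ± 0.07 and than in ESC-11 by 0.43 ± 0.07 (limma adjusted p = 0.0111 and 9.36e-04), with no overlap between lines. Against ESC-3 alone, GDF1 was lower (-0.36), and SMURF1, a ubiquitin ligase that acts with SMAD7 (0.73 ± 0.06), TGFB1 (0.56) and TGFBR3 (0.50) were higher. Against ESC-11 alone, GDF11 (0.21) and TGFBR1 (0.21) were higher. With a library left out, the limma adjusted p reached 0.0694 for GDF1, 0.0801 for GDF11 and 0.102 for TGFBR1. ZFYVE9 (SARA), an anchor that brings SMAD2 and SMAD3 to the receptors, was lowest in ESC-11. It had 15.6 ± 0.365 FPKM in ESC-7, 14.5 ± 0.915 in ESC-3 and 9.06 ± 0.961 in ESC-11 (SD, n = 3 each). ZFYVE9 was higher in ESC-7 than in ESC-11 by 0.73 ± 0.07 (limma adjusted p = 3.11e-05). It was also higher in ESC-3 than in ESC-11, by 0.58 to 0.70 with a library left out (limma adjusted p up to 9.13e-04).

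**Figure D4:**
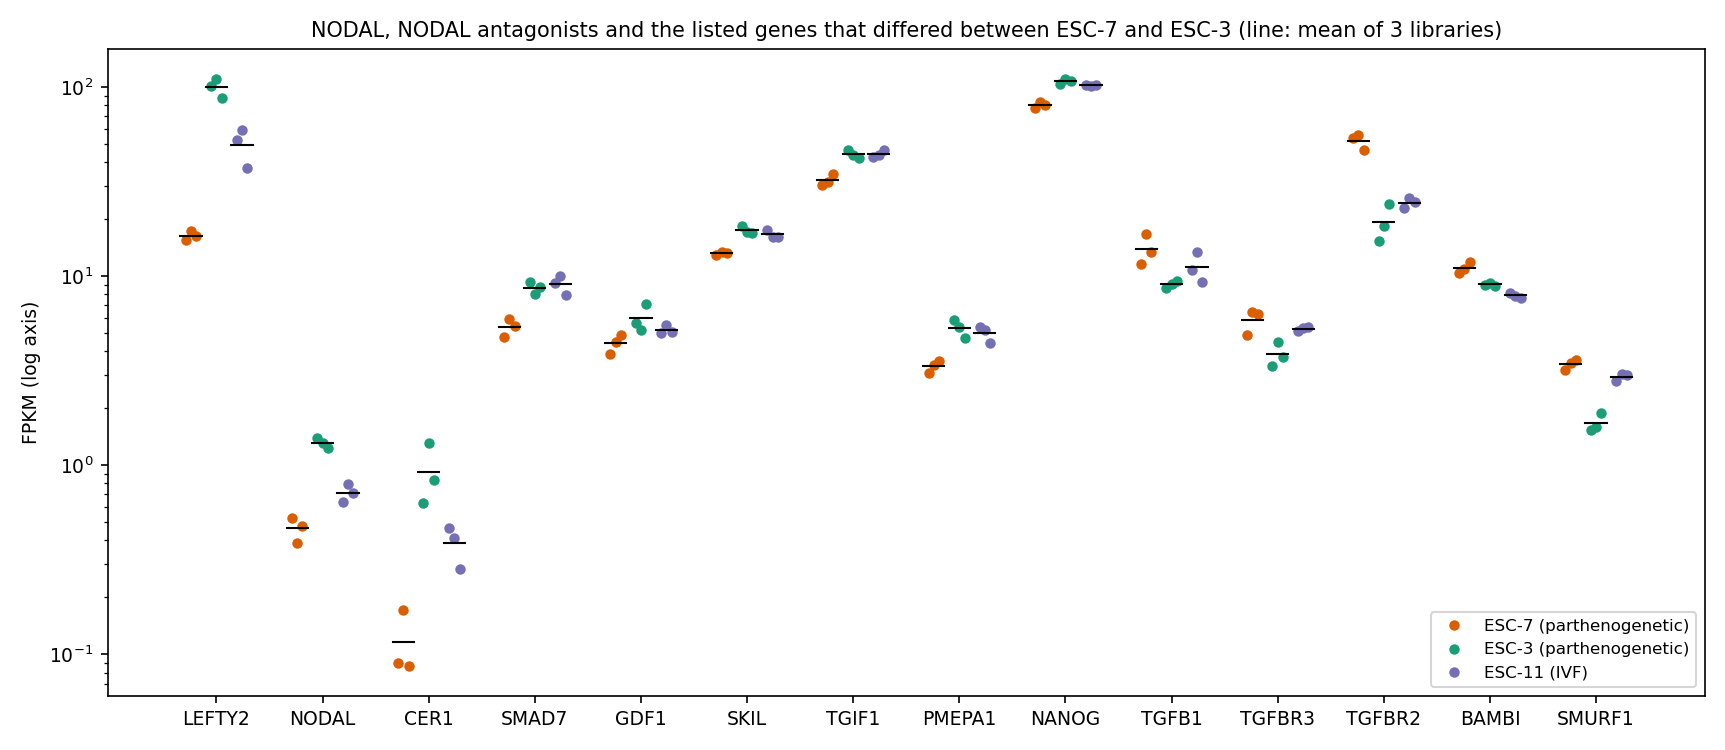
FPKM on a log axis in the 9 ESC libraries for LEFTY2, NODAL, CER1, SMAD7 and the 10 listed genes that had an adjusted p under 0.05 between ESC-7 and ESC-3, with 1 point per library, ESC-7, ESC-3 and ESC-11 from left to right within a gene, and a line at the mean of 3 libraries. By mean FPKM, ESC-7 is the lowest line for the first 9 genes and the highest for TGFB1, TGFBR3, TGFBR2 (51.8 FPKM, against 19.4 in ESC-3 and 24.5 in ESC-11), BAMBI and SMURF1. LEFTY2, NODAL, CER1 and SMAD7 were chosen by name, and the 10 listed genes for a difference between ESC-7 and ESC-3. Not drawn are ACVR1B, ACVR2A and ACVR2B, lower in ESC-7 than in ESC-3 by the adjusted p, and SMAD3, which was higher.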

How the data were processed

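The authors deposited FPKM values of 30012 loci in 12 polyA RNA libraries (TruSeq, paired ends of 100 bp). STAR 2.4.0b, Cufflinks 2.1.1 and the build Sscrofa10.2 are named, with no role, in the submitters' processing notes. Strand handling and shared reads are not given in the sources used here. The table holds no counts, so depth is unknown and no counting interval is given. Between 21898 and 24100 loci were above 0 in a library, and loci under 300 bp held 54.8% to 80.6% of the summed FPKM. This share was 54.8% to 60.7% in ESC-11 and 70.7% to 80.6% in the other groups. The median FPKM of loci above 0 was 4.59 to 4.62 in ESC-11 and 4.80 to 5.05 in the other groups. The part of this in the comparisons with ESC-11 was not tested.

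Where several loci carried a symbol, an annotated one was preferred, and then the one with the highest mean. The Ensembl name table held 11275 of 20688 Ensembl identifiers. Group means of all 12 libraries were fitted on log2(FPKM + 1) in 1 model with limma 3.58.1 (R 4.3.3, two-sided, variance trend), over the 18278 loci that reached 1 FPKM in 3 or more libraries, and p-values were adjusted over all of them. The model was tested on simulated data. Because libraries of a group may be technical repeats, p-values speak of their spread alone. Errors are SD between libraries for FPKM and SE for log2 differences. The 10 members, 7 lists of other pathway genes and 6 marker lists were chosen with earlier results of these data known. All members and all listed genes could be named, by a rule written with the lists. Named by likeness were the 5 loci that correlated best with NODAL and with LEFTY2 among named loci averaging 5 FPKM or more in ESCs. CFC1, LEFTY1, FSTL3, SKI, TGIF2, DRAP1 and TBXT were not analysed here, and some listed or overlapping loci are not reported here. Alternatives were other pseudocounts, filters, scalings and model settings, and leaving out each library. Tables and plots used Python 3.11.15, pandas 2.3.3, numpy 2.4.6 and matplotlib 3.10.9.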

Additional observations from a re-analysis of the deposited data

Results flagged for a closer look

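LEFTY2 differed between ESC lines under the same fit: the log2 difference was -2.53 for ESC-7 minus ESC-3 (limma adjusted p = 7.90e-07), -1.52 for ESC-7 minus ESC-11 (limma adjusted p = 4.16e-05) and 1.01 for ESC-3 minus ESC-11 (limma adjusted p = 8.67e-04). TGFBR2 was higher in ESC-7, by 1.39 against ESC-3 (limma adjusted p = 5.34e-05) and by 1.05 against ESC-11 (limma adjusted p = 5.60e-04). These were the calls between lines among the 10 members and the 28 other pathway genes tested. Of all tested loci, 3.38% were called between ESC-7 and ESC-3, 2.94% between ESC-7 and ESC-11, and 2.48% between ESC-3 and ESC-11. Groups of 3 libraries were too small for the check of single outlying libraries.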

How the results depend on the processing

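Under the alternatives, 113 differences of named genes kept direction and call in 2440 recalculations, lost the call in 32, gained it in 13 and changed sign in 6. The directions that turned were TGFBR3 (-0.025 after quantile normalization and -0.070 after median-ratio scaling), CREBBP (-0.087 and -0.27), SMAD4 (-0.083 after median-ratio scaling) and NODAL in ESC-7 minus fibroblasts (-0.014 after quantile normalization). Both scalings lowered the median over all loci between ESCs and fibroblasts, to 0.10 and 0.04 in place of 0.44, and gave 3489 higher and 3476 lower loci (quantile) and 3511 and 3811 (median-ratio) in place of 5144 and 2730.

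With a pseudocount of 5 the called loci were 4554 in place of 7874 for ESCs minus fibroblasts, 4714 for ESC-3, 4494 for ESC-7 and 4521 for ESC-11 minus fibroblasts, 225 in place of 402 for parthenogenetic lines minus ESC-11, 264 in place of 454 for ESC-3 minus ESC-11, 248 in place of 537 for ESC-7 minus ESC-11, and 219 in place of 618 for ESC-7 minus ESC-3. In the last 4 comparisons, in the same order, a pseudocount of 0.1 gave 673, 747, 904 and 1148, and Ensembl loci alone gave 131, 157, 209 and 321. Between ESCs and fibroblasts a pseudocount of 5 also took GDF3 (0.44), GDF1 (0.91) and BAMBI (0.99) under the fold minimum. A filter at FPKM 5 gave 387 for ESC-7 minus ESC-3. Members called against fibroblasts were 4 with a pseudocount of 5 in ESC-3 and in ESC-7 (7 in the main analysis of each), and 4 on Ensembl loci alone in ESC-3. Ensembl loci alone leave out the NODAL, LEFTY2 and SMAD3 loci by construction, and gave 0 members between any lines. For ESC-3 minus ESC-11, 0 members were called with a pseudocount of 5 or either scaling, and 0 to 1 when a library was left out. For ESC-7 minus ESC-3, 2 were called with a pseudocount of 0.1.

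Replicate numbers did not pair the libraries: deviations of same-numbered libraries correlated at -0.0900 to 0.0867 over 18 pairs, and 2 of 12 libraries correlated best with their own number. A replicate block gave 7880 loci for ESCs minus fibroblasts and changed no call of the 113, while the limma adjusted p of TGFBR1 between ESC-7 and ESC-11, under the fold minimum in both fits, was 0.056 with the block. The low levels of NODAL and SMAD3, and the unknown depth, limit how firmly their differences can be stated.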
